A study of Mus musculus with 27 samples.

Results

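Gm12907, 4933424M12Rik and Lrp8os3 are long non-coding RNA (lncRNA) genes of mouse chromosome 4 that lie right of a deleted boundary between topologically associating domains. They were chosen as the 3 lncRNA genes among the 6 genes of the authors' deposited cis table, a table of expression slopes for genes near the deletion, and each was measured by the contacts of every 10 kb bin it overlaps. Together the 3 genes take up 6 of the 82 bins of the region described here. The series holds 27 samples of mouse testis, of which 6 capture Hi-C libraries are used for contacts: 3 from wild-type mice and 3 from mice homozygous for the CRISPR-Cas9 deletion B396.BOS. The cis table draws on RNA-seq of testis from wild-type, heterozygous and homozygous mice, with 3 samples of each genotype. Neither the age of the mice nor whether replicates came from different animals is given in the labels, so the spread between replicates may be partly technical, and whole testis mixes germ cells of all stages with somatic cells.

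A topologically associating domain is a stretch of chromatin whose loci contact each other more often than they contact loci outside it, and its boundaries are often bound by the protein CTCF together with cohesin. Hi-C counts such contacts as ligated pairs of fragments, and the capture step enriches pairs from a chosen region. Contact frequency falls steeply with distance along the chromosome, so a deletion also brings the loci on its sides closer together in sequence. Long non-coding RNAs are transcripts without a recognised protein product. Many are detected in testis, often at low levels and with no assigned function.

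In the RefSeq annotation of GRCm38.p6, Gm12907 (gene 102634068) lies at chr4:107759287-107770993 on the plus strand, 19.3 kb right of the affected interval, and spans 3 bins. Most of it, 10000 of its 11707 bases, is in the middle bin, and the pseudogene Gm12906 overlaps it. The gene 4933424M12Rik (gene 67548) lies at chr4:107783686-107789922 on the plus strand, 43.7 kb from the interval, inside 1 bin. Lrp8os3 (gene 105244644) lies at chr4:107793149-107802064, 53.1 kb from the interval, in 2 bins. Its second bin also holds the start of Lrp8, which encodes an apolipoprotein E receptor that also binds reelin, and part of the lncRNA gene Lrp8os2, so contacts of that bin cannot be assigned to Lrp8os3 alone.

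Start-site windows were found for 2 of the 3 genes in the RefSeq promoter table of GRCm38.p6, which holds 250 bases before and 50 bases after each annotated start. They are shown because the window of Gm12907 lies in the bin with the largest contact change of these 6 bins. No entry was found for Lrp8os3. Capitals mark matches on either strand to 5 short motifs. These are the TATA box, searched as TATAAA, the CAAT box as CCAAT and the GC box as GGGCGG. The remaining motifs are letters from the core of the CTCF site, searched as CCCTC, and the core of the cAMP response element, searched as TGACG. The windows are given 5′ to 3′ on the plus strand, at chr4:107759037-107759336 for Gm12907 and chr4:107783436-107783735 for 4933424M12Rik.
Gm12907: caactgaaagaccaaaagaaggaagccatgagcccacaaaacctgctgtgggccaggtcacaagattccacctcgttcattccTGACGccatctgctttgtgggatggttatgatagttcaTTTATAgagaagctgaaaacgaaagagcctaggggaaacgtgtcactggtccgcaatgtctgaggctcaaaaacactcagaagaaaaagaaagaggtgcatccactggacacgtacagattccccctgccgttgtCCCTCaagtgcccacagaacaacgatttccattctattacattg
4933424M12Rik: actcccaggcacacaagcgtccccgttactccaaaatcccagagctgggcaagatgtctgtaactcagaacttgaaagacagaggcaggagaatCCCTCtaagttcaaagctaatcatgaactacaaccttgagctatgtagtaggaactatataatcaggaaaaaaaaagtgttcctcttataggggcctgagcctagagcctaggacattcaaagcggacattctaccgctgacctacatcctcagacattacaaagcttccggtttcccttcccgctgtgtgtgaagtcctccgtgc
The Gm12907 window held the cAMP response element core 167 bases before the start, the TATA box on the minus strand 129 bases before it, and the CTCF letters 6 bases after it. The 4933424M12Rik window held the CTCF letters 156 bases before the start and none of the others. Matches did not overlap each other. Among all 32851 promoters in that table, 13.6% held the TATA box letters, 37.4% the CAAT box, 35.7% the GC box, 66.0% the CTCF letters and 20.8% the cAMP response element core on either strand. Both windows had a GC content of 47.3%, against a median of 52.7% over all promoters, with 8 CpG dinucleotides for Gm12907 and 7 for 4933424M12Rik against a median of 7.

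Contacts were read from a core of 850 kb, chr4:107110001-107960000, with 60 bins left and 22 bins right of the affected interval. Of the 3 bins of that interval, chr4:107710001-107740000, the homozygous libraries kept 73.1%, 0.170% and 0.406% of the wild-type coverage, which corresponds to about 22.6 kb of missing sequence. Libraries held 5669898 to 7794641 contacts in all and 385415 to 767565 inside the core, and replicate 2 of each genotype was the deepest there. A value is called changed below when the 3 wild-type and 3 homozygous libraries did not overlap. An exact two-sided permutation test of 3 against 3 libraries cannot give a p below 0.1.

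In wild-type testis all 3 genes made most of their core contacts on their own side of the boundary. The share of contacts crossing the interval was 45.8%, 45.0% and 45.1% for Gm12907 in wild-type replicates 1, 2 and 3, counting partners at least 20 kb away. In the homozygous libraries it was 53.4%, 52.2% and 51.9%, in a core that spans 600 kb left of the interval but 220 kb right of it. In windows of 220 kb on each side, Gm12907 still made more contacts on its own side in every homozygous library. There the log2 ratio of across to own-side contacts was -0.58, -0.58 and -0.67, against -1.13, -1.13 and -1.17 in wild type. The share rose from 45.3% ± 0.432 to 52.5% ± 0.811 (SD, n = 3 each), a difference of 7.19 percentage points (exact permutation p = 0.1).

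The share of 4933424M12Rik stood at 39.1%, 36.7% and 39.3% in wild type and reached 43.8%, 43.0% and 43.1% after the deletion. Wild-type replicate 2 was the lowest of all, and the groups did not overlap. The mean rose from 38.4% ± 1.44 to 43.3% ± 0.443 (SD, n = 3 each; exact permutation p = 0.1), by 4.94 points. For Lrp8os3 the wild-type values were 37.1%, 36.4% and 36.3%, and the homozygous values 42.4%, 41.7% and 40.9%. Its mean share rose from 36.6% ± 0.409 to 41.7% ± 0.751 (SD, n = 3 each; exact permutation p = 0.1), by 5.12 points. All 3 genes were thus changed, but so were 92.7% of the 82 single bins of the core measured alike, and the count of 3 of 3 does not set the genes apart from their surroundings.

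**Figure D1:**
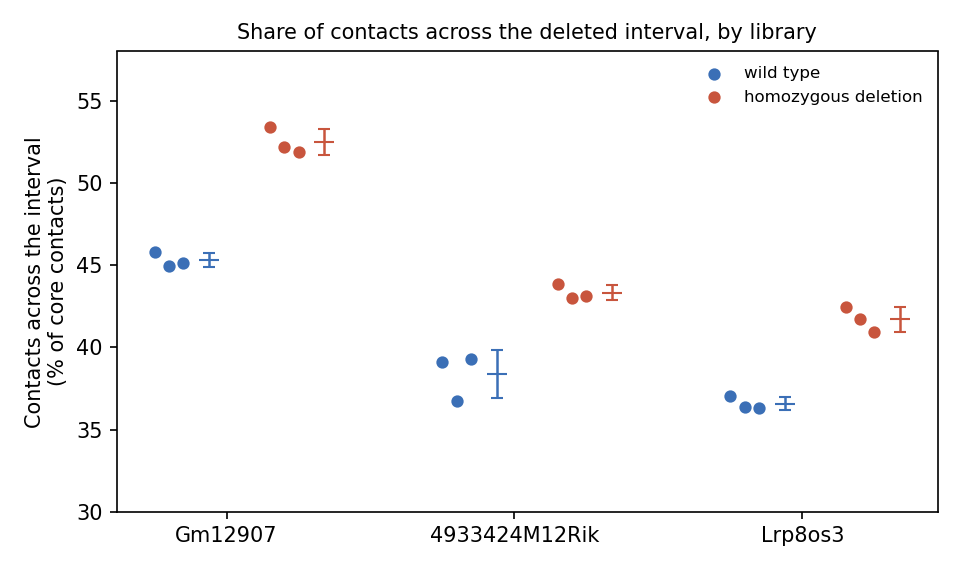
Share of each gene's core contacts that cross the affected interval, in percent, for each capture Hi-C library (points) with the mean and SD of 3 libraries beside them; the axis starts at 30%. Homozygous libraries lie above the wild-type libraries for all 3 genes, and the Gm12907 values pass from 45.3% to 52.5% on average.

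The rise in share was larger for Gm12907, the gene nearest the interval. Within each library its share exceeded that of 4933424M12Rik by 5.84 to 8.25 points in wild type and by 8.75 to 9.57 points in the homozygous libraries, and the difference widened by 2.25 points (exact permutation p = 0.1, no overlap). Against Lrp8os3 the difference widened by 2.06 points, again without overlap (exact permutation p = 0.1). The difference between 4933424M12Rik and Lrp8os3 moved by -0.19 points and the groups overlapped (exact permutation p = 1). In the log2 ratio of contacts across to own-side contacts, read over windows of 220 kb on each side of the interval, the rise of 4933424M12Rik exceeded that of Lrp8os3 by 0.06 without overlap. Set against the contacts expected after shortening the distances by the estimated missing length, as described further on, the rise of Gm12907 exceeded those of 4933424M12Rik and Lrp8os3 by 0.02 and 0.01, with overlap (exact permutation p = 0.6 and 0.8). These comparisons between the genes were added after the values were seen.

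The 6 bins show the same order. The bin with the annotated start of Gm12907 changed by 8.60 points, and its other bins by 6.35 and 6.33 points, ranking 2nd, 3rd and 4th among the 22 bins right of the interval. The bin of 4933424M12Rik ranked 10th with 4.94 points. For Lrp8os3, the bin that holds most of the gene changed by 4.51 points, and the bin shared with the start of Lrp8 by 5.43 points. Only 714 bases of Gm12907 lie in its first bin, so the largest change of these bins belongs to the flank and start of the gene.

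Counts behind these shares were large. Gm12907 had 6328, 10416 and 8122 contacts across the interval in wild type and 7766, 15333 and 10252 in the homozygous libraries, with 6773 to 14033 on its own side. Scaled to 100000 core contacts, its contacts across the interval rose from 3104 ± 19.5 to 3876 ± 29.9 (SD, n = 3 each; exact permutation p = 0.1) and its own-side contacts fell from 3747 ± 43.4 to 3508 ± 87.5 (exact permutation p = 0.1). Scaling to the captured region of 7580 kb instead gave 1030 ± 39.5 and 1043 ± 59.8 own-side contacts per 100000, with overlapping groups, so the own-side decrease depends on the scale. On the same core scale 4933424M12Rik rose across the interval from 1115 ± 18.2 to 1304 ± 41.6, and Lrp8os3 from 1919 ± 116 to 2237 ± 151. Own-side values of these 2 genes overlapped between genotypes on either scale, while the rise across the interval held without overlap on both scales for all 3 genes. Other bins of the core were not counted on these scales, and 92.7% of the 82 single bins changed in their share across the interval.

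Each gene also touched the affected interval itself. In the 3 wild-type libraries these contacts made up 11.9% to 12.2% of the core contacts of Gm12907, interval included, 6.80% to 7.73% of those of 4933424M12Rik and 6.21% to 6.84% of those of Lrp8os3. Means of 4.20%, 2.21% and 1.77% remained in the homozygous libraries, where the leftmost bin of the interval keeps most of its coverage. These contacts are left out of every share above.

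Ranked by share alone, which favours bins close to the interval, the 3 genes had the same top partners across the boundary. The 3 left-side bins with the highest wild-type share were the same for each gene, at chr4:107700001-107710000, chr4:107680001-107690000 and chr4:107670001-107680000. All overlap Dmrtb1, which encodes a DM-domain transcription factor that acts in spermatogonia at the transition from mitosis to meiosis. The first 2 also overlap 1700047F07Rik, an lncRNA gene that spans the interval, and the first also holds LOC115486425. Contacts of those 2 bins cannot be assigned to Dmrtb1 alone. Contacts of Gm12907 with the nearest of these bins were 3.02%, 2.79% and 3.14% of its core contacts in wild type and 4.61%, 4.27% and 4.81% in the homozygous libraries. The homozygous values all lay above the wild-type values. On average they rose from 1.08 to 1.85 times the number expected at the reference distance. The other 2 bins stood at 0.96 and 0.89 times that number for Gm12907 in wild type. The highest wild-type values by this measure lay at bins farther left, at 1.38 for Gm12907, 1.71 for 4933424M12Rik and 1.42 for Lrp8os3. For 4933424M12Rik the same bin took 2.27%, 1.95% and 2.11% in wild type against 2.71%, 2.51% and 3.10%, and for Lrp8os3 1.86%, 1.80% and 2.18% against 2.54%, 2.24% and 2.53%. Neither set overlapped, although the highest wild-type and the lowest homozygous value of Lrp8os3 were close.

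**Figure D2:**
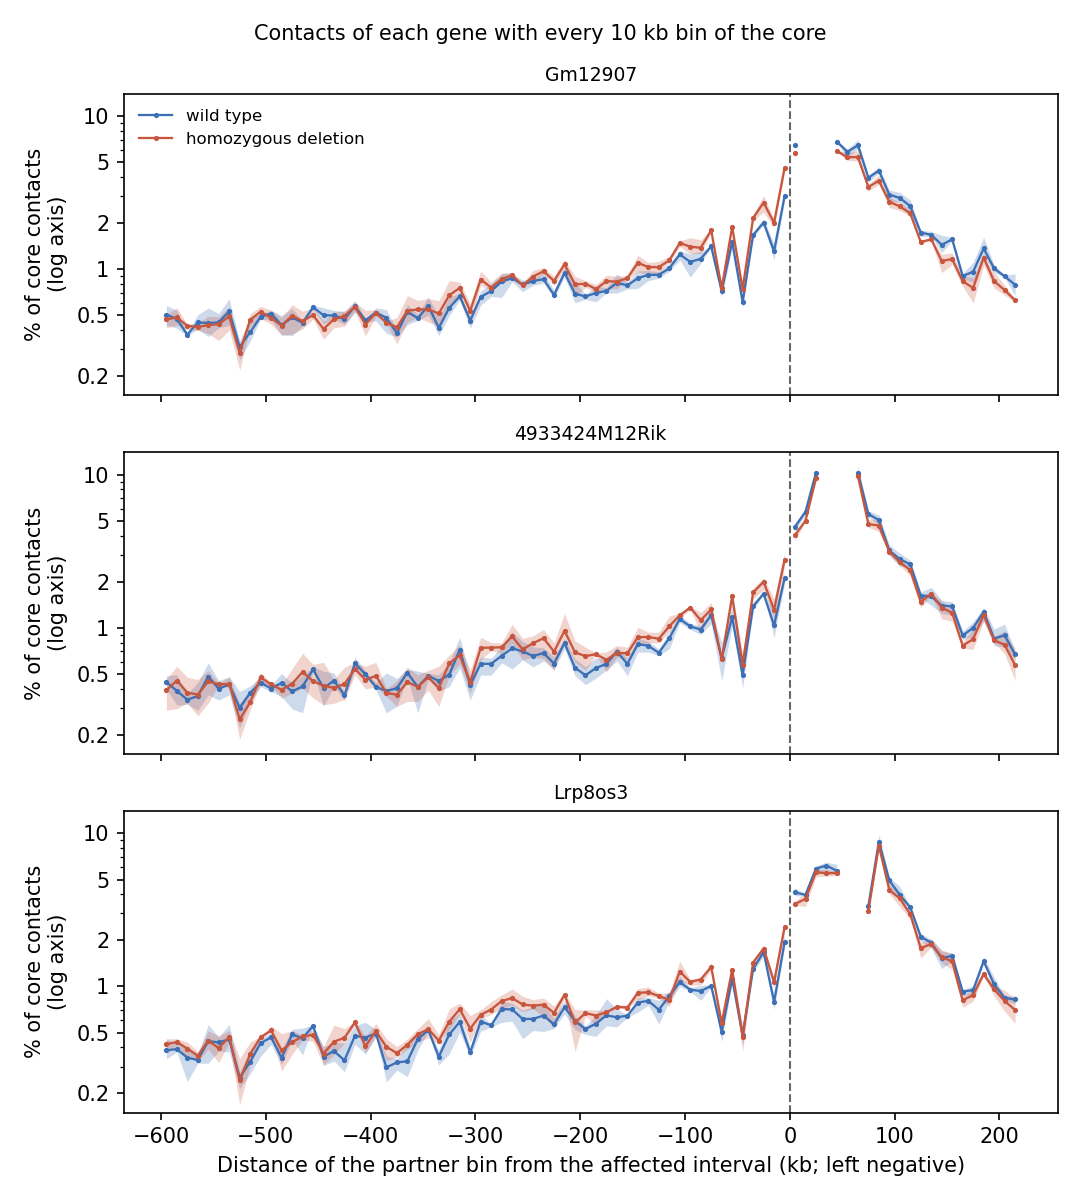
Percent of each gene's core contacts (log axis) with every 10 kb bin, against the distance of that bin from the affected interval in kb; lines are means and bands the range of 3 libraries, wild type in blue and homozygous deletion in red. Left of the interval the homozygous line of Gm12907 lies above the wild-type line in the nearest 100 kb, as in the nearest bin with 4.56% against 2.98%, and right of the interval it lies below.

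Single partner bins showed where the change fell. Each value is a share of the gene's core contacts, so gains across the interval lower the shares on the own side. For Gm12907, 16 of 60 bins across the interval were changed, all 16 higher, and 12 of 19 bins on its own side, all lower. For 4933424M12Rik there were 9 of 60 across, all higher, and 5 of 19 on its own side, all lower. For Lrp8os3 there were 21 of 60 across, 20 higher and 1 lower, and 5 of 20 on its own side, all lower. The same measure over the right-side bins outside these genes called 16.9% of bins across and 16.3% of bins on the own side. The own-side share of Gm12907, 63.2%, was well above that background; 4933424M12Rik lay near it across the interval with 15.0%. Each bin of the multi-bin genes sums more contacts than a single background bin, which lowers its sampling noise.

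At the level of genes, contacts with Dmrtb1 and with Glis1 rose for all 3 lncRNA genes. No count of other bins was made for these 2 partners alone, so 3 of 3 is not shown to be a trait of these genes. Of the 82 single bins of the core, 92.7% changed in their share across the interval. Glis1 encodes a zinc finger transcription factor of the Krüppel type and fills 22 bins left of the interval. Contacts of Gm12907 with Dmrtb1 made up 8.01%, 7.73% and 8.15% of its wild-type core contacts and 11.6%, 11.4% and 11.3% of its homozygous ones, a rise of 3.46 points (exact permutation p = 0.1). For 4933424M12Rik the values with Dmrtb1 were 6.57%, 5.96% and 6.04% against 8.19%, 7.58% and 7.57%, a rise of 1.59 points (exact permutation p = 0.1). Lrp8os3 had 5.68%, 5.46% and 6.01% against 6.95%, 6.55% and 6.63%, a rise of 0.99 points (exact permutation p = 0.1). The gain with Dmrtb1 therefore shrank from the nearest gene to the farthest, and the libraries did not overlap for any of them.

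With Glis1 the gains were of similar size for the 3 genes. Gm12907 went from 19.2%, 20.2% and 19.1% to 22.0%, 23.4% and 21.4%, by 2.74 points. Contacts of 4933424M12Rik went from 16.0%, 16.4% and 16.4% to 18.3%, 20.2% and 18.5%, by 2.74 points, and those of Lrp8os3 from 16.0%, 16.5% and 15.2% to 18.1%, 19.5% and 18.0%, by 2.61 points. Homozygous replicate 2 was the highest each time, and no homozygous library overlapped a wild-type library (exact permutation p = 0.1 for each gene).

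Right of the interval the share with Lrp8 was lower. Shares are parts of the same total, so a rise across the interval lowers those on the own side. For Gm12907 the Lrp8 share was 25.6%, 28.0% and 26.5% in wild type and 22.3%, 24.7% and 22.7% in the homozygous libraries. Its mean fell from 26.7% to 23.2% without overlap (exact permutation p = 0.1). The unscaled contacts numbered 3531, 6474 and 4775 in wild type and 3239, 7268 and 4491 in the homozygous libraries, with overlap. The Lrp8 share of 4933424M12Rik was 31.3% to 35.2% in wild type and 29.7% to 31.7% in the homozygous libraries, and that of Lrp8os3 27.1% to 29.7% and 25.2% to 27.4%. Both pairs of ranges overlapped, with differences of -2.11 and -2.30 points (exact permutation p = 0.3 and 0.2). The groups separated in balanced matrices (-1.75 and -2.17 points) and when homozygous replicate 2 was left out (-2.67 and -2.95), and for Lrp8os3 also without wild-type replicate 1 (-2.94). Without wild-type replicate 2 the difference of 4933424M12Rik was -0.87, and with no minimum distance -0.81. Magoh, a core subunit of the exon junction complex, fell from 3.28%, 3.14% and 2.91% to 2.77%, 2.47% and 2.83% of the Gm12907 contacts (exact permutation p = 0.1), while its share in the contacts of the other 2 genes differed by 0.02 and -0.02 points with overlap.

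**Figure D3:**
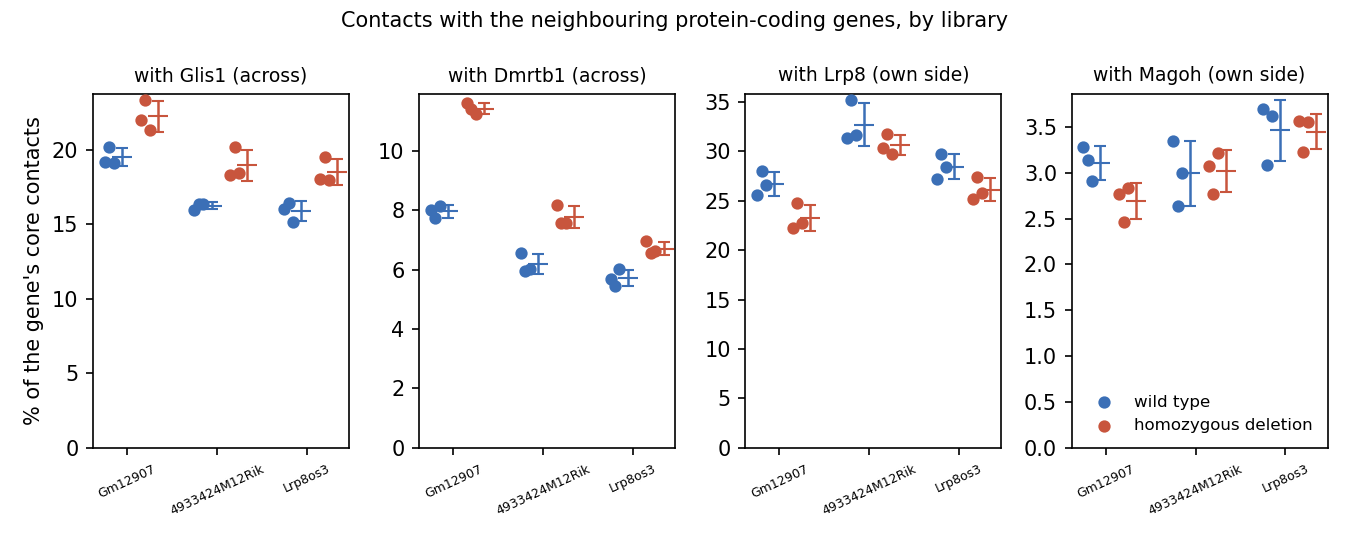
Percent of each lncRNA gene's core contacts with Glis1 and Dmrtb1 across the interval and with Lrp8 and Magoh on its own side; points are libraries, bars the mean and SD of 3 libraries, and each panel has its own axis from 0. Dmrtb1 and Glis1 are separated by genotype for all 3 genes, Lrp8 and Magoh for Gm12907 only.

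Over the 16 annotated protein-coding genes of the core, 14 of 48 pairs of an lncRNA gene and a partner were changed, 8 higher and 6 lower. Right-side bins outside the 3 genes gave 25.5% for the same measure, so 14 of 48 is close to the background. Besides the pairs above, named here after their values were seen, Lrp8os3 rose with Ndc1 (a nuclear pore protein gene) by 0.55 points and with Yipf1 by 0.30 points. Gm12907 fell with Czib by 0.71 points. Cpt2, the gene of a mitochondrial enzyme of fatty acid transport, fell by 0.34 points in the contacts of 4933424M12Rik and by 0.44 points in those of Lrp8os3. Dio1, a thyroid hormone deiodinase gene, fell by 0.09 points for 4933424M12Rik and was the only partner across the interval that was lower without overlap.

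The lncRNA genes also contacted each other. Contacts with 4933424M12Rik were 6.83%, 6.85% and 6.68% of the Gm12907 core contacts in wild type and 5.83%, 5.99% and 5.86% in the homozygous libraries. Contacts with Lrp8os3 went from 12.2% ± 0.0505 to 10.7% ± 0.334 of the Gm12907 total, also without overlap (SD, n = 3 each; exact permutation p = 0.1). Between 4933424M12Rik and Lrp8os3 the values were 9.43% to 11.5% of the contacts of 4933424M12Rik in wild type and 9.26% to 10.4% in the homozygous libraries, with overlap. The lower values with Gm12907 go with its lower own-side share, which falls as contacts across the interval enlarge the total. Its contacts with 4933424M12Rik numbered 943, 1587 and 1202 in wild type and 847, 1760 and 1159 in the homozygous libraries.

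Because the deletion shortens the distance across the interval, contacts were set against the mean count of same-side pairs at the same distance in the same library. At reference distances Gm12907 made fewer contacts across the boundary than expected in wild type, with log2 observed over expected of -0.13, -0.12 and -0.13, and more in the homozygous libraries, with 0.25, 0.30 and 0.26. The difference was 0.40 (exact permutation p = 0.1). Values of 4933424M12Rik stood at 0.10, 0.16 and 0.10 in wild type, against 0.37, 0.51 and 0.37 after the deletion, a difference of 0.30 (exact permutation p = 0.1). Only Gm12907 was below expectation in each wild-type library. The counts were not balanced, so the coverage of a gene's bins can shift these levels. With Lrp8 on the own side the wild-type means were 0.41 for Gm12907, 0.41 for 4933424M12Rik and 0.20 for Lrp8os3. Lrp8os3 had -0.10, 0.10 and -0.04 in wild type and 0.21, 0.42 and 0.17 in the homozygous libraries, a difference of 0.28 (exact permutation p = 0.1), with replicate 2 highest in both genotypes. Among 69 single bins with an expectation, 76.8% were changed by this measure, and 3 of 3 genes were.

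After the distances of the homozygous libraries were shortened by the estimated 22.6 kb, the differences were 0.15 for Gm12907, 0.13 for 4933424M12Rik and 0.14 for Lrp8os3. Gm12907 then stood at 0.01, 0.05 and 0.01 and 4933424M12Rik at 0.21, 0.33 and 0.20, both still above all wild-type libraries (exact permutation p = 0.1 each). Lrp8os3 stood at 0.07, 0.27 and 0.02 and overlapped the wild type (exact permutation p = 0.3). Thus 2 of 3 genes were changed, beside 47.8% of single bins. Shortening by 3 bins left 0.03, 0.06 and 0.08, and without overlap only for Gm12907.

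**Figure D4:**
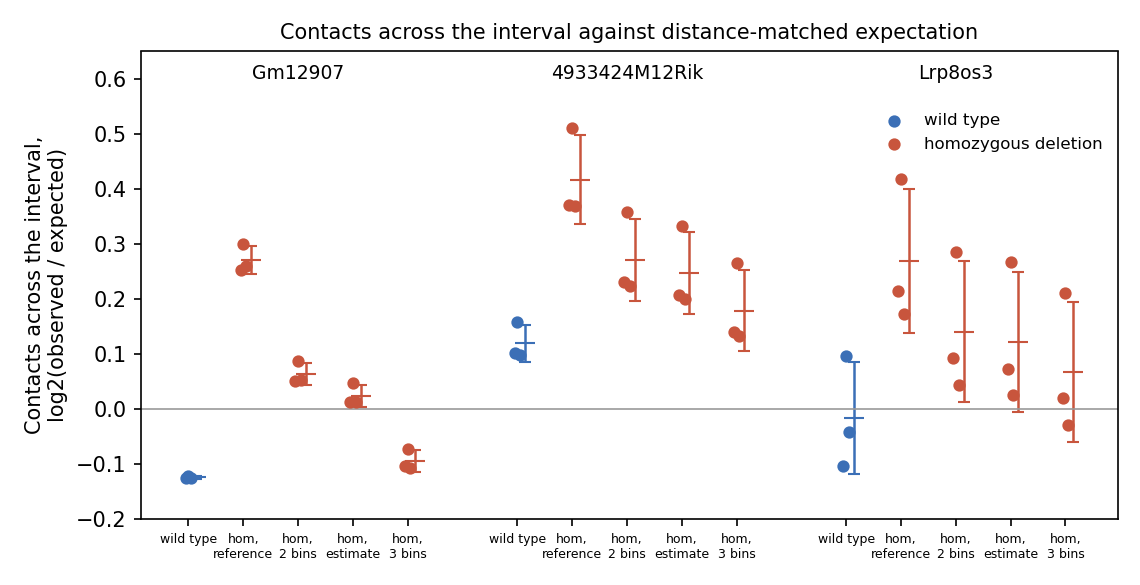
Contacts across the interval as log2 of observed over expected, for wild type and for the homozygous libraries at reference distances and with distances shortened by 2 bins, by the estimated missing length and by 3 bins; points are libraries, bars the mean and SD of 3 libraries. Gm12907 falls from a difference of 0.40 to 0.03 as the shortening grows.

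Distance classes of 100 kb, chosen after the values were seen, gave a further description. Within 100 kb the Gm12907 difference was 0.65 at reference distances and 0.11 after shortening by the estimated length. From 300 to 400 kb it was 0.31 and 0.24, and the libraries did not overlap in either (exact permutation p = 0.1). At that distance 4933424M12Rik differed by 0.30 and 0.23, also without overlap (exact permutation p = 0.1), and its level was 0.44 in wild type, above expectation. The right side spans 220 kb, so the expectation at that distance comes from left-side pairs alone. Lrp8os3 differed by 0.33 there at reference distances without overlap (exact permutation p = 0.1) and by 0.26 after shortening, with overlap (exact permutation p = 0.2). At 100 to 200 and 200 to 300 kb the Gm12907 difference fell from 0.39 to 0.19 and from 0.29 to 0.16 with the estimated length. In those classes Lrp8os3 differed by 0.24 each at reference distances, with overlap (exact permutation p = 0.2 each). The values of 4933424M12Rik were 0.33 without overlap and 0.30 with overlap (exact permutation p = 0.1 and 0.2). At 400 to 500 kb the Gm12907 difference was 0.14 and 0.12 with overlap. In that last class 4933424M12Rik differed by 0.07 and 0.05 with overlap, and Lrp8os3 by 0.29 and 0.27 without overlap. Within 100 kb the estimated length left 0.05 for 4933424M12Rik and 0.09 for Lrp8os3, both with overlap (exact permutation p = 0.4 and 0.3). Shortening by 3 bins instead turned the difference within 100 kb to -0.15 for Gm12907, without overlap, and to -0.11 for 4933424M12Rik and -0.04 for Lrp8os3, with overlap.

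Each gene was next set against the left-side bins at the same distance from the interval, with windows of equal length on the 2 sides. The mirror bins of Gm12907, chr4:107670001-107700000, overlap Dmrtb1, 1700047F07Rik and the pseudogene Gm12899. Those of the other genes, chr4:107660001-107670000 and chr4:107640001-107660000, hold no annotated gene. In wild type the log2 ratio of contacts across to contacts on the own side was lower at Gm12907 than at its mirror by 0.61, 0.55 and 0.63 in replicates 1 to 3, and in the homozygous libraries by 0.47, 0.41 and 0.58. The ratio rose by 0.53 at the gene and by 0.42 at the mirror, and the difference of 0.11 was within the overlap of the libraries (exact permutation p = 0.2).

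At 4933424M12Rik the ratio rose by 0.38 and at its mirror by 0.32, a difference of 0.06 (exact permutation p = 0.6). That mirror bin received few contacts, 477 to 1042 across the interval per library against 1184 to 3077 for the gene, so its ratio is less precise. For Lrp8os3 the rises were 0.33 at the gene and 0.33 at the mirror, and the difference was 0.00 (exact permutation p = 1). The libraries overlapped for all 3 genes, whereas they were separate at 18.2% of the 22 distances measured this way. The gene bins lay lower than their mirrors in wild type at all 6 distances they occupy, by 0.08 to 0.78, and this was so at 13 of the 22 distances.

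**Figure D5:**
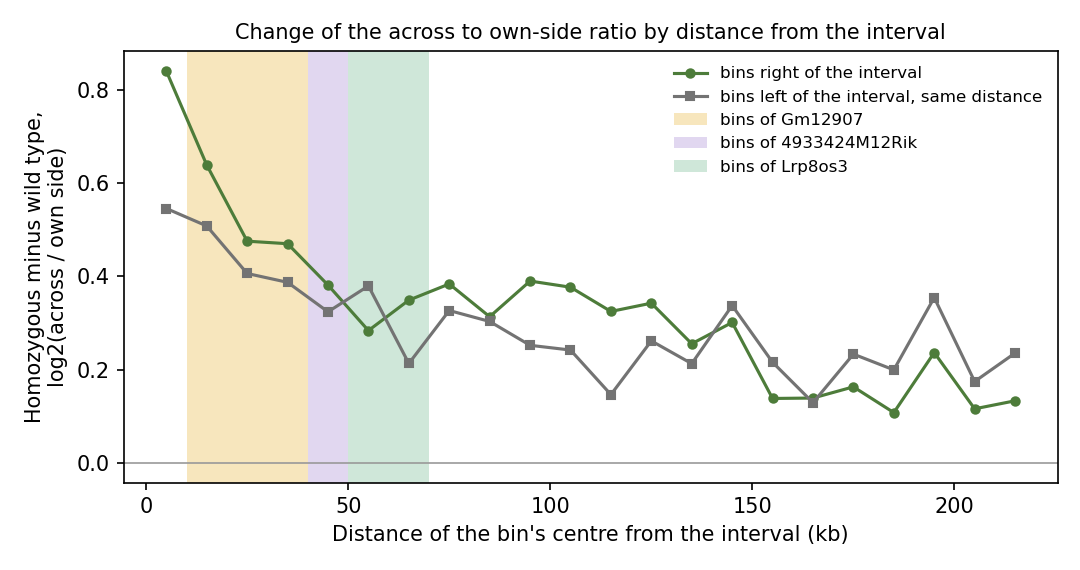
Homozygous minus wild-type log2 ratio of across to own-side contacts for single bins right of the interval (green) and left of it at the same distance (grey), against distance in kb; each point is a difference of means of 3 libraries and shading marks the bins of the 3 genes. On the right side the change falls from 0.84 next to the interval to 0.64 at the start of Gm12907, 0.38 at 4933424M12Rik and 0.28 and 0.35 at Lrp8os3, and at these bins the left side changed by 0.21 to 0.55.

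The 3241 pairs of 10 kb bins in the core were then taken singly in edgeR (quasi-likelihood F test), with Benjamini-Hochberg adjustment over all 3241. Of the 464 pairs that involve the 3 genes, 3 passed an adjusted p of 0.05, against 0.216% of all pairs. Across the interval these were 3 of 360 pairs (0.833%), beside 6 of all 1320 (0.455%), which include the same 3. All 3 joined Gm12907 to bins at the end of Dmrtb1 nearest the interval, which 1700047F07Rik also overlaps, and all were higher in the homozygous libraries. The pair of the start bin of Gm12907 with chr4:107700001-107710000 had 131, 241 and 172 wild-type contacts, against 287, 528 and 380 after the deletion. Relative to the core it doubled, with a log2 fold change of 1.03 ± 0.122 (SE) and an edgeR adjusted p of 3.77e-06.

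The start bin with chr4:107690001-107700000 had 78, 84 and 88 wild-type contacts, against 119, 240 and 150 after the deletion, a log2 fold change of 0.87 ± 0.156 (SE; edgeR adjusted p = 0.00362). The middle bin of Gm12907 with the same partner had 59, 109 and 92 against 117, 198 and 145 contacts, a log2 fold change of 0.72 ± 0.147 (SE; edgeR adjusted p = 0.0165). This last call is the least stable: its edgeR adjusted p was 0.228 without wild-type replicate 1, 0.0547 without wild-type replicate 3, 0.162 without homozygous replicate 1 and 0.171 without homozygous replicate 3, and in DESeq2 its adjusted p was 0.0522. Without homozygous replicate 3 the edgeR adjusted p of the start-bin pair with that partner was 0.0598. When the estimated missing length entered the edgeR fit as a distance offset, an alternative added after the data were seen, the 3 log2 fold changes were 0.06, 0.17 and 0.15 and no pair of these genes passed.

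No pair of 4933424M12Rik or Lrp8os3 passed in edgeR, where 9 of 79 and 19 of 158 pairs had an unadjusted p below 0.05, or in DESeq2, where 3 and 6 did. Over all 3241 pairs of the core the same threshold was met by 248 in edgeR and 97 in DESeq2. Across the interval it was met in edgeR by 9 of 60 pairs of 4933424M12Rik and 16 of 120 of Lrp8os3, beside 172 of all 1320. The smallest p of 4933424M12Rik belonged to its pair with chr4:107700001-107710000, with 131, 203 and 154 wild-type contacts, against 160, 312 and 241 after the deletion, a log2 fold change of 0.42 ± 0.128 (SE; edgeR adjusted p = 0.305). Its pair with chr4:107650001-107660000 had a log2 fold change of 0.51 ± 0.155 (SE; edgeR adjusted p = 0.305). For Lrp8os3 the smallest p across the interval belonged to the bin that holds most of the gene, with chr4:107630001-107640000, within Glis1. There 45, 64 and 64 contacts stood against 65, 125 and 83 (log2 fold change 0.53 ± 0.167 SE; edgeR adjusted p = 0.323). The pair of that Lrp8os3 bin with chr4:107690001-107700000 came next across the interval, with a log2 fold change of 0.54 ± 0.18 (SE; edgeR adjusted p = 0.368). On the own side 3 of 38 pairs of Lrp8os3 had an unadjusted edgeR p below 0.05.

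Pairs of the 3 genes across the interval had a median log2 fold change of 0.20, beside 0.16 for all pairs across it. On the own side the median was -0.12, beside -0.07 for all own-side pairs. With the contacts of the captured region as library totals, the median of all pairs moved from -0.01 to 0.13, the own-side median of these genes became 0.02, and 12 of their 464 pairs passed, all across the interval and higher, beside 17 of all 3241 pairs, also all across and higher. All 12 involved Gm12907, and the 17 came from the 1320 pairs across the interval. Only the difference between the across and own-side pairs is free of that scale.

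Expression of the 3 genes was read from the authors' deposited cis table, which gives a slope, a t statistic, a p and a false discovery rate per gene but no level per sample. The p-values of the authors' deposited table match a t distribution with 7 degrees of freedom, as a straight line through 9 samples has. Its genotype coding and expression unit are not given in the sources used here, so the sign of a slope cannot be turned into a direction by genotype and slopes of different genes are not compared.

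For 4933424M12Rik the authors' deposited table gives a slope of 0.109 with t = 0.724, p = 0.493 and a false discovery rate of 0.991. A 95% interval computed from that slope and t in the authors' deposited table runs from -0.247 to 0.464. Lrp8os3 has a slope of -0.00912 in the authors' deposited table, with t = -0.228, p = 0.826 and a false discovery rate of 0.991, and an interval from -0.104 to 0.0855. For Gm12907 the authors' deposited table gives a slope of 9.5e-19, which is 0 within the rounding of the arithmetic, with p = 1. The standard error that its slope and t imply, 0.0129, is above 0, so the Gm12907 values behind the authors' deposited table were not all the same.

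None of the 3 lncRNA genes passed a false discovery rate of 0.05 in the authors' deposited table, and neither did the other 3 genes in it. The smallest p in the authors' deposited table belonged to Dmrtb1, with t = 2.90, p = 0.0229 and a false discovery rate of 0.137. Lrp8, whose start shares a bin with Lrp8os3, has t = 0.564 and p = 0.590 in the authors' deposited table, and Glis1 t = 0.455 and p = 0.663. A difference in expression of the 3 lncRNA genes was not detected there, and their intervals give the sizes of slope that the authors' deposited table leaves possible. For Gm12907 the interval computed in the same way from the authors' deposited table runs from -0.0306 to 0.0306.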

How the data were processed

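Contact matrices of 6 capture Hi-C libraries were deposited by the authors as raw contact counts per pair of 10 kb bins on mm10, per the submitters' processing notes; the contact caller and its filters are not given in the sources used here. For RNA-seq those notes name STAR. Per the labels' protocols, Hi-C used the Arima kit and Agilent SureSelect capture. The authors' deposited cis table gives a t statistic and slope (taken as scores) and p-values with false discovery rates. The ChIP-seq samples are not analysed here.

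The 3 genes and all lists were chosen with earlier results of these data known. Shares and ratios were computed per library from the counts of each gene's bins, with partners at least 2 bins away. The expectation was the mean count of same-side core pairs at the same distance in the same library, for distances up to 500 kb that had at least 10 pairs. Missing length was the summed loss of homozygous coverage over the 3 affected bins. Groups were compared by exact permutation over libraries (3 against 3, two-sided). Bin pairs averaging 5 or more contacts entered edgeR 4.0.16 (R 4.3.3; TMM, quasi-likelihood, genotype as the only term), with DESeq2 1.42.0 as an alternative; numpy 2.4.6 and scipy 1.17.1 were used otherwise. The fit was tested on simulated data.

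Named items followed a rule: the 3 genes; the partners Dmrtb1, Glis1, Lrp8 and Magoh with the 3 largest changes per gene; up to 3 passing bin pairs per gene, or else the 2 across the interval with the smallest p; and the 3 bins across with the highest wild-type share. Alternatives were other minimum distances, the whole captured region, balanced matrices, other shortenings, other normalizations and filters, leaving out each library, and a replicate block. Libraries totalled 5669898 to 7794641 contacts, and the counting error of a value depends on the contacts of the bins it covers.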

Additional observations from a re-analysis of the deposited data

How the results depend on the processing

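The rise in the share across the interval kept its direction without overlap in every alternative run: 4.78 to 8.60 points for Gm12907, 2.90 to 5.40 for 4933424M12Rik and 3.54 to 5.51 for Lrp8os3. Log2 observed over expected lost its separation for 4933424M12Rik when shortened by 3 bins (0.0599), and for Lrp8os3 when shortened by 2 bins (0.16), by the estimated missing length (0.14) and by 3 bins (0.08). Leaving out single libraries kept all 3 apart. Gene minus mirror bins is not settled by these libraries. For Gm12907 the groups separated with no minimum distance (0.10), in balanced matrices (0.12), and when wild-type replicate 2 (0.14) or homozygous replicate 3 (0.16) was left out, within a range of 0.0763 to 0.16 over single libraries left out. For 4933424M12Rik it was -0.029 with no minimum distance and -0.0188 to 0.131 with single libraries left out; for Lrp8os3 it was 0.0164 with the mirror widened by 2 bins, 0.0426 in balanced matrices and -0.0621 to 0.0482 with single libraries left out. The cause was not tested. Contacts with Magoh, near 0 in difference, moved between -0.156 and 0.197 points for 4933424M12Rik and between -0.207 and 0.0985 for Lrp8os3 with single libraries left out, and for Lrp8os3 were 0.0543 with no minimum distance and 0.0582 in balanced matrices.

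Passing bin pairs of the 3 genes numbered 12 (all of Gm12907) with the captured region as library totals, 0 with the distance offset, 2 in DESeq2, and 1 to 4 with single libraries left out (1 without homozygous replicate 3). No pair fell under the count filter. The pair of 4933424M12Rik with the left-side bin next to the interval had log2 fold changes of -0.0018 (with block) and -0.0015 (without) under the offset. Same-numbered libraries correlated in their deviations with r = 0.142, 0.418 and 0.083, and wild-type replicate 3 correlated best with homozygous replicate 1, so the numbers were not taken to pair the libraries. With a replicate block, 29 of 464 bin pairs passed (23 higher, 6 lower), beside 74 of all 3241 (2.28%): 21 of Gm12907, 3 of 4933424M12Rik and 6 of Lrp8os3, counting a pair that joins 2 of these genes under each. In that edgeR fit the named pairs of 4933424M12Rik had adjusted p = 0.0023 and 0.00408 and those of Lrp8os3 0.0267 and 0.0541. With the offset as well, 2 passed (both lower), beside 9 of all pairs. Pairs of lncRNA and partner gene with 1 sign in all same-numbered libraries numbered 24 of 48, beside 50.6% for other right-side bins, and gene minus mirror for Gm12907 (0.11) had 1 sign in every pair.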
